A study of Mus musculus with 12 samples.

Results

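The genes described here are 10 members of the bone morphogenetic protein (BMP) pathway, chosen by symbol: the ligands Bmp2, Bmp4 and Bmp7, the secreted antagonist follistatin (Fst), the inhibitory Smads Smad6 and Smad7, and the target genes Id1, Id2, Id3 and Id4. They are 10 of the 32678 genes on the array. The members were found as every probe, control spots aside, whose accession matched 1 of these symbols, which gave 14 probes in 41 spots per array. Id1, Id2, Id4 and Bmp7 had more than 1 probe. Every one of the 14 probes passed the filter on dim signals, so all 10 genes were among the 31064 tested.

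RNA came from 12 colonies grown in culture from the labial cervical loop of the mouse incisor, the epithelial stem cell niche from which this tooth grows throughout life. The submitters label the colonies as dental stem cells from dental epithelia, on a mixed genetic background. Wild-type colonies (replicates 1, 3, 4 and 5), Bmi1-/- colonies (Bmi1 null, replicates 1 to 4) and colonies lacking both Bmi1 and the Ink4a/Arf locus (double null, replicates 1 to 4) gave 4 arrays each. Bmi1 is a Polycomb protein that represses the Ink4a/Arf locus, Cdkn2a, which encodes the inhibitors of cell growth p16Ink4a and Arf. Each array is 1 colony, and neither the number nor the age of the mice is given in the sources used here. P-values thus measure only the spread from colony to colony.

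BMPs are secreted ligands that bind pairs of type I and type II receptors, which then phosphorylate Smad1, Smad5 and Smad9. These enter the nucleus with Smad4 and switch on targets, among which the Id genes respond most directly. Id proteins bind E proteins and other basic helix-loop-helix factors and keep them from DNA, and they are best known for holding cells back from differentiation. Smad6 and Smad7 are themselves induced by the pathway and shut it down again, and Fst traps activins and some BMPs outside the cell. In the incisor, BMP4 from the mesenchyme promotes ameloblast differentiation, and Fst opposes it.

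The level of a gene is given below as its log2 signal relative to the 75th percentile of that array. Levels of different probes cannot be set against each other. Signals spanned a smaller range on wild-type arrays, where the interquartile range of log2 signals was 2.56 ± 0.06 (SD, n = 4). It was 4.52 ± 0.18 on the Bmi1 null arrays and 4.66 ± 0.42 on the double null arrays. The median log2 change of all genes from wild type was -1.24 in Bmi1 null and -1.41 in double null arrays. A second fit, with the array median taken off instead, left medians of -0.11 and -0.14. A gene is therefore said to be higher or lower than wild type only where both fits called it in the same direction, at an adjusted p under 0.05 in limma. Both fits shift each array by 1 value and leave its range of signals as it was. Agreement between them thus does not correct for the smaller wild-type range, and directions against wild type below carry that limit. Between the mutants the median of all genes was -0.07.

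Bmi1 was lower in both mutants in both fits, and its level was -0.27 ± 0.46 on wild-type, -2.36 ± 0.15 on Bmi1 null and -2.54 ± 0.20 on double null arrays (SD, n = 4 each). The log2 changes from wild type were -2.09 for Bmi1 null and -2.26 for double null, but -0.96 and -1.01 with the array median, and Bmi1 signal stayed well above background on all 8 mutant arrays. Cdkn2a signal passed the background test on 4 of 4 arrays from Bmi1 null colonies and on 0 of 4 of either other genotype. Of 13 dental and basal epithelial markers, all 13 stood well above background on every wild-type array, and 11 did on every array of each mutant. Over all spots the mean share well above background was 94.6% on wild-type, 82.5% on Bmi1 null and 80.1% on double null arrays. Ambn, an enamel matrix gene, was not well above background on any mutant array, nor was Shh on any double null array. Markers of other cell types moved with genotype. The summed signal of 8 immune markers, in units of the array's 75th percentile, was 8.82 to 10.8 on wild-type arrays, 0.741 to 1.12 on Bmi1 null arrays and 0.659 to 1.17 on double null arrays. For 5 endothelial markers the sums were 1.62 to 2.02, 0.309 to 0.470 and 0.333 to 0.829, and for 7 glial, neural and melanocyte markers 13.8 to 16.7, 4.55 to 5.45 and 4.99 to 5.14. The 13 mesenchymal markers summed to 12.2 to 14.8 on wild-type arrays, 5.20 to 10.1 on Bmi1 null arrays and 5.29 to 40.7 on double null arrays, replicate 4 being the highest. Their part in the results below was not tested, and in RNA from whole colonies fewer cells of a type and less RNA per cell cannot be told apart. Double null replicate 1 stood apart in its spots: 3.08% were marked as outliers and left out, against 0.127 to 0.304% on the other arrays.

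Between the mutants, 3 of the 10 genes were called: Id1 and Bmp2 were lower and Id4 was higher in double null colonies. Over all genes 7.56% were called in that comparison, 7.11% with the array median, and 6.24% in both fits (2.72% higher, 3.52% lower). The median log2 change of the 10 genes was -0.76, against -0.07 over all genes. In Bmi1 null colonies against wild type, Fst, Smad7, Id1, Id3 and Bmp7 were higher and Smad6 was lower in both fits. In double null colonies against wild type, Fst, Smad7, Bmp7 and Id4 were higher in both fits, and 0 of the 10 genes were lower in both. These counts, 6 and 4 of 10, stand beside 62.7% of all genes called in both fits for Bmi1 null colonies (25.2% higher, 37.6% lower) and 63.7% for double null colonies (25.5% higher, 38.1% lower). The share of the 10 genes called was thus near or below that of all genes. With the 75th percentile alone 6 and 8 of the 10 were called (all genes: 83.5% and 85.5%), and with the array median alone 9 and 6 (76.8% and 77.1%). The 2 comparisons share the wild-type arrays. Genotypes did not overlap in 4 of the 10 genes between the mutants, in 5 between Bmi1 null and wild type and in 7 between double null and wild type, against 13.8%, 80.1% and 81.5% of all genes.

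These counts moved with single arrays and with the slide, of which there were 5, each carrying 1 to 4 of the arrays. Between the mutants 5 of the 10 genes were called without Bmi1 null replicate 1, 6 without double null replicate 1, and 1, Id1, with slide as a block. In double null colonies against wild type, with the 75th percentile, 5 in place of 8 were called without wild-type replicate 1. With slide as a block Fst (3.84), Smad6 (-1.97), Smad7 (1.95) and Id1 (3.18) stayed called in Bmi1 null colonies against wild type. Within slides 1 and 2, which held both these genotypes, Fst differed by 3.78 and 3.80, Smad6 by -2.32 and -1.33, Smad7 by 2.22 and 1.72, and Id1 by 3.75 and 2.71.

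**Figure D1:**
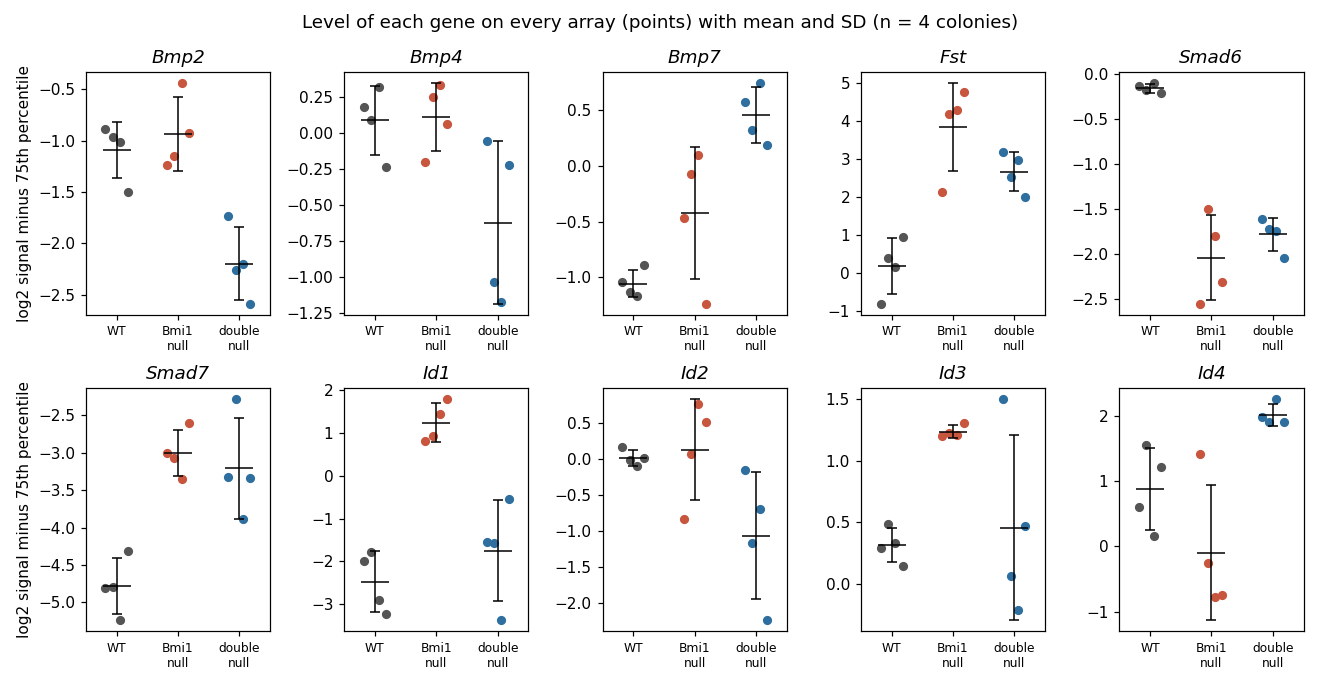
Level of each of the 10 genes (log2 signal relative to the 75th percentile of the array, vertical axis, scaled separately for each gene) on the 4 arrays of each genotype; points are single colonies, the long dash is the mean and the bar 1 SD. Id1 stood above 0.8 on all 4 Bmi1 null arrays and below -0.5 on all 8 others, while Id4 lay between 1.90 and 2.25 on the 4 double null arrays.

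Bmp2 is a ligand that activates the Smad1/5 branch and is made in tooth epithelium during cusp and enamel formation. Its level on the wild-type arrays, in replicate order, was -0.89, -0.96, -1.02 and -1.50. On the Bmi1 null arrays it was -1.23, -1.15, -0.44 and -0.92, and on the double null arrays -1.73, -2.26, -2.21 and -2.59. All 4 double null colonies lay below all 8 others, while wild-type and Bmi1 null colonies overlapped. Double null colonies had 2.40-fold less Bmp2 signal than Bmi1 null colonies (log2 change -1.26 ± 0.24 SE, limma adjusted p = 0.00880; -1.13 and adjusted p = 0.00986 with the array median). The mean of 10 spots stood for the gene, or of 8 or 9 where spots were marked as outliers, and the SD between spots of an array was 0.032 to 0.518. The call between the mutants was lost when the background was corrected by normexp, which models it on every spot (-0.68, adjusted p = 0.162) and with slide as a block (-1.42, adjusted p = 0.0725), while within slides 2 and 3 the change was -1.06 and -1.72. Against wild type the change in double null colonies was -1.11 (adjusted p = 9.52e-04 in limma) but 0.15 with the array median, so no direction is given.

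Bmp4, the ligand best known from dental mesenchyme, was at 0.18, 0.09, 0.32 and -0.24 in wild type. Bmi1 null colonies gave -0.20, 0.25, 0.33 and 0.06, and double null colonies -0.06, -1.03, -1.17 and -0.22. Double null replicates 2 and 3 lay below every colony of the other genotypes, and replicates 1 and 4 within their range. The change between the mutants was -0.73, with an unadjusted 95% interval from -1.31 to -0.15, and was not called (limma adjusted p = 0.125). Without double null replicate 1 it was -0.92 and passed, with a limma adjusted p of 0.0497.

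Bmp7, a ligand expressed in both epithelium and mesenchyme of teeth, was at -1.04, -1.13, -1.16 and -0.89 in wild type. The Bmi1 null levels were -0.47, -0.08, 0.09 and -1.24, and the double null levels 0.57, 0.32, 0.74 and 0.18. On this probe, which stood for the gene, every double null colony was above every colony of the other genotypes, and Bmi1 null replicate 4 was the lowest of all 12. Double null colonies had 2.84-fold more signal than wild type (log2 change 1.51 ± 0.27 SE, limma adjusted p = 1.70e-04). The other Bmp7 probe, read from 10 spots, gave 0.74 there (limma adjusted p = 0.0254 over all probes). In Bmi1 null colonies the first probe was 0.63 above wild type (limma adjusted p = 0.0419) and the second -0.011 (adjusted p = 0.973), so the call rests on 1 spot per array, and it was kept in 11 of 23 alternatives. Between the mutants the change of 0.87 ± 0.27 SE missed the threshold (limma adjusted p = 0.0682) and passed with the array median (1.01, adjusted p = 0.0279). The second probe gave 0.75 there and was not called (limma adjusted p = 0.126 over all probes). On it the mutants overlapped, Bmi1 null replicate 3 (-1.34) lying above double null replicates 2 (-1.53) and 4 (-1.61).

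Fst showed the widest span of levels among the 10 genes. Wild-type colonies were at -0.82, 0.39, 0.15 and 0.95, Bmi1 null colonies at 2.13, 4.19, 4.29 and 4.77, and double null colonies at 3.19, 2.54, 2.97 and 2.00. All 8 mutant colonies were above all 4 wild-type colonies, and the mutants overlapped, Bmi1 null replicate 1 being low. Loss of Bmi1 alone came with 12.8-fold more Fst signal than in wild type (log2 change 3.68 ± 0.53 SE, limma adjusted p = 3.38e-05). In double null colonies it was 5.68-fold higher (2.51 ± 0.53, adjusted p = 6.81e-04). Both changes were called in 22 of 22 alternative settings. The mutants differed by -1.17 (unadjusted 95% interval -2.32 to -0.02, limma adjusted p = 0.220), which became -1.74 and passed without Bmi1 null replicate 1 (adjusted p = 0.0242).

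Smad6, which blocks Smad1 signalling downstream of BMP receptors, varied little in wild type, at -0.13, -0.18, -0.10 and -0.21. Bmi1 null colonies were at -2.55, -1.50, -1.80 and -2.31 and double null colonies at -1.61, -1.73, -1.75 and -2.05. Every mutant colony lay below every wild-type colony. The fall in Bmi1 null colonies was 3.70-fold (log2 change -1.89 ± 0.23 SE, limma adjusted p = 7.90e-06) and held with the array median at -0.76 (adjusted p = 0.00353). In double null colonies the change was -1.63 (limma adjusted p = 2.41e-05) but -0.37 with the array median (adjusted p = 0.108), where it was not called. Between the mutants Smad6 differed by 0.26, with an unadjusted 95% interval from -0.24 to 0.75 (limma adjusted p = 0.574).

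Smad7, which acts on both the BMP and the TGF-beta branch, was dim: it was well above background on 2 of 4 wild-type arrays and on all 8 mutant arrays. Its levels were -4.80, -4.79, -5.23 and -4.31 in wild type, -3.00, -3.07, -3.35 and -2.60 in Bmi1 null colonies, and -3.33, -2.28, -3.89 and -3.33 in double null colonies. The mutants overlapped each other and lay above all wild-type colonies. Smad7 rose 3.43-fold over wild type in Bmi1 null colonies (log2 change 1.78 ± 0.32 SE, limma adjusted p = 2.06e-04). In the double null colonies the rise was 2.98-fold (1.58 ± 0.32, adjusted p = 4.96e-04). Correcting the background by normexp ended both calls (0.20, adjusted p = 0.536, and 0.48, adjusted p = 0.170). The 2 inhibitory Smads thus stood in opposite directions in Bmi1 null colonies, Smad6 lower and Smad7 higher, while neither was called between the mutants.

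Among the Id genes, Id1 separated the Bmi1 null colonies from both other genotypes. Its wild-type levels were -1.98, -1.78, -2.90 and -3.25, its Bmi1 null levels 0.82, 0.93, 1.44 and 1.80, and its double null levels -1.54, -1.56, -3.38 and -0.53. All 4 Bmi1 null colonies were above all 8 others, and the wild-type and double null colonies overlapped. Compared with wild type, Id1 signal in Bmi1 null colonies was 13.2-fold higher (log2 change 3.73 ± 0.52 SE, limma adjusted p = 2.63e-05). Compared with Bmi1 null colonies, that of double null colonies was 8.0-fold lower (-3.00 ± 0.52, limma adjusted p = 0.00524; -2.87, adjusted p = 0.00667 with the array median). The change of 0.73 between double null and wild-type colonies was not called (adjusted p = 0.206 in limma), whereas with the array median it was 1.99 and called (adjusted p = 0.00388).

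Both Id1 probes gave this pattern: the second changed by -2.95 between the mutants (limma adjusted p = 0.00788 over all probes) and by 3.69 between Bmi1 null and wild type. Between the mutants Id1 was called in 23 of 23 alternative settings, with log2 changes from -3.51 to -2.22 and adjusted p-values from 0.00170 to 0.0428 in limma. Double null replicate 4, the array with the high mesenchymal sum, was also the double null colony with the most Id1, and without it the change was -3.41 (adjusted p = 0.00217). Within the 2 slides that held both mutants it was -4.30 (slide 2, 1 array each) and -2.48 (slide 3, 1 Bmi1 null and 2 double null arrays).

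Id4 ran the other way. Wild-type colonies were at 0.61, 1.56, 0.15 and 1.21, Bmi1 null colonies at 1.41, -0.26, -0.78 and -0.75, and double null colonies at 1.98, 1.90, 2.25 and 1.91. On this probe, which stood for the gene, the double null colonies lay close together above all 8 others, and Bmi1 null replicate 1 stood within the wild-type range. Between the mutants, Id4 was 4.31-fold higher where Ink4a/Arf was also missing (log2 change 2.11 ± 0.44 SE, limma adjusted p = 0.0136; 2.24, adjusted p = 0.0113 with the array median). Without Bmi1 null replicate 1 the change was 2.61 (adjusted p = 0.00115). The second Id4 probe gave 0.93 ± 0.34 SE and was not called (limma adjusted p = 0.118 over all probes), so the probes shared the sign but not the size. On that probe Bmi1 null replicate 1 was at 1.74, above every double null colony (highest 1.69) and every wild-type colony (highest 0.67). With slide as a block the change was 2.35 and was not called (limma adjusted p = 0.116), and within slides 2 and 3 it was 2.51 and 2.73. Against wild type, Id4 was higher in double null colonies (1.13, limma adjusted p = 0.0301), and on the second probe (1.45, adjusted p = 0.00145). That call held in 17 of 23 alternatives and was lost with quantile normalization (0.57, adjusted p = 0.257), in the authors' deposited values (0.78, adjusted p = 0.0792), with slide as a block (1.62, adjusted p = 0.0750), and without wild-type replicate 1 (1.04, adjusted p = 0.0717), wild-type replicate 4 (0.89, adjusted p = 0.0958) or double null replicate 3 (1.05, adjusted p = 0.0671). Id4 was not called in Bmi1 null colonies against wild type (-0.98, limma adjusted p = 0.0560), where the array median (0.15) and the second probe (0.52) gave the other sign.

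Id3 was nearly constant in Bmi1 null colonies, at 1.20, 1.23, 1.21 and 1.31, against 0.30, 0.48, 0.33 and 0.15 in wild type. Double null colonies scattered over 1.50, 0.07, -0.21 and 0.47, with replicate 1 the highest of all 12. The excess of Id3 over wild type in Bmi1 null colonies was 1.90-fold (log2 change 0.92 ± 0.30 SE, limma adjusted p = 0.0120). With slide as a block this was 0.74 and was not called (adjusted p = 0.0702). The mutants differed by -0.78 (unadjusted 95% interval -1.43 to -0.13, limma adjusted p = 0.144). Leaving out double null replicate 1 made that -1.13 and the difference passed (adjusted p = 0.00613).

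Id2 was at 0.16, -0.01, -0.10 and 0.01 in wild type. Bmi1 null colonies gave -0.83, 0.06, 0.76 and 0.51, and double null colonies -0.16, -1.17, -0.70 and -2.24. On this probe, which stood for the gene, the double null colonies were all below the wild-type colonies but overlapped with Bmi1 null replicate 1. On the second Id2 probe double null replicate 1 (-3.60) was above every wild-type colony (highest -4.12). With the array median, double null and wild-type colonies overlapped on the first probe too. The change between the mutants was -1.19 ± 0.42 SE and was not called (limma adjusted p = 0.108), and neither comparison with wild type was called in both fits. The change between the mutants passed without Bmi1 null replicate 1 (-1.51, adjusted p = 0.0428) or without double null replicate 1 (-1.49, adjusted p = 0.0381). The second probe gave -0.84 there and was not called (limma adjusted p = 0.272 over all probes). Of the 4 Id genes, Id1 and Id4 were thus called between the mutants in opposite directions, and Id2 and Id3 in neither.

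**Figure D2:**
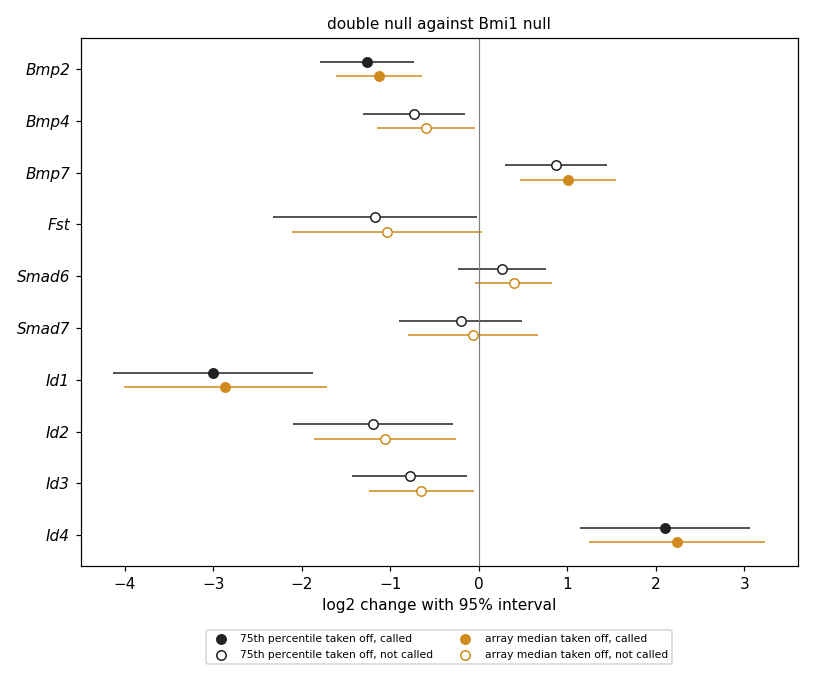
Log2 change of each gene, double null minus Bmi1 null, with its unadjusted 95% interval, with the array's 75th percentile (black) or the array median (orange) taken off; filled points were called at an adjusted p under 0.05. Id1 (-3.00), Bmp2 (-1.26) and Id4 (2.11) were called with both, and Bmp7 with the array median only.

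**Figure D3:**
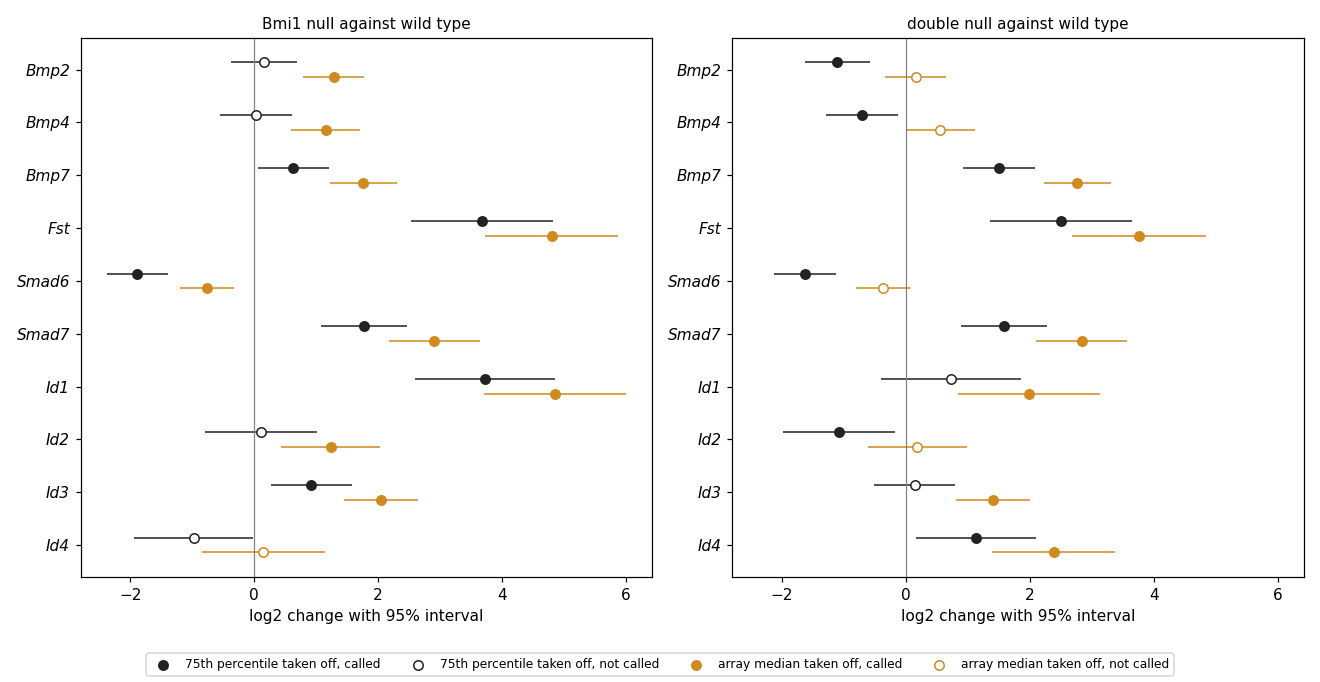
Log2 change of each gene in Bmi1 null (left) and double null colonies (right) minus wild type, with unadjusted 95% intervals; black takes off the 75th percentile, orange the array median, and filled points were called. The orange points lie to the right of the black ones by the shift of all genes, which turns the sign of Bmp2, Bmp4 and Id2 in the right panel, while Fst, Smad7 and Bmp7 are filled and above 0 in both colours and both panels.

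Because Id genes are direct Smad targets, the 250 bases before the start of Id2, Id3 and Id4 are shown with the GC-rich Smad element in capitals, to set Id4, called between the mutants, beside Id2 and Id3, which were not. Sequences are from RefSeq (build GRCm38.p6), and an entry was used for 5 of the 10 genes, Id2, Id3, Id4, Smad6 and Bmp4. The search for the 10 genes left out a single chromosome, and elsewhere it found no entry for the remaining genes, which were thus not searched for a motif. A gene on the chromosome left out is not shown to lack an entry. Id2 lies at chr12:25096093-25096342 on the minus strand, Id3 at chr4:136143572-136143821 and Id4 at chr13:48260866-48261115, both on the plus strand.
Id2: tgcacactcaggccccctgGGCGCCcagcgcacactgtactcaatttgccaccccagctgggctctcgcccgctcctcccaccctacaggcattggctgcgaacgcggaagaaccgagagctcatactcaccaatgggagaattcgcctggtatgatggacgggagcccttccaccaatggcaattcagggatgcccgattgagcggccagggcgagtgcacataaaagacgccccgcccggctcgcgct
Id3: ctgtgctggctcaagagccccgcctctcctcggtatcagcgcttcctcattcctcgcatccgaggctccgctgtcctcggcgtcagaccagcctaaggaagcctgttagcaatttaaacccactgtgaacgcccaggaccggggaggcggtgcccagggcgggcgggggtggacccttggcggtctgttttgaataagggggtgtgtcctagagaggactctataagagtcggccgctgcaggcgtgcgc
Id4: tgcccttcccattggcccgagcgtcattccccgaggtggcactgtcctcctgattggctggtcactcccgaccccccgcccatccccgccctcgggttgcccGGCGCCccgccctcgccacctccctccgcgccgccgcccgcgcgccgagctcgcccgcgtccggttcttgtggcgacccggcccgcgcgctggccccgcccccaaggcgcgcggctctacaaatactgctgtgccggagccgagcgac
The motif GGCGCC, which reads the same on both strands, occurred once in Id2, 231 to 226 bases before the start, and once in Id4, 148 to 143 bases before it. It was not found in the windows of Id3, Smad6 or Bmp4, and it occurred in 9.59% of 32851 promoter windows of that length. The Smad palindrome GTCTAGAC, which also reads the same on both strands and does not overlap the first motif, was in 0.167% of all windows and in none of the 5. Such matches describe letters in these windows and not binding. GC content was 62.8% for Id2, 62.8% for Id3 and 75.6% for Id4.

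Around these 10 genes, 108 of 114 other BMP and activin pathway genes listed by role were tested. Between the mutants 3 were higher and 6 lower in double null colonies, 9 of 108 beside 7.56% of all genes, with a median log2 change of -0.03. With slide as a block Bmp8a and Tob1 stayed called and the other 7 did not. The largest was Bmp8a, a further BMP ligand, which was 13.2-fold lower (log2 change -3.72 ± 0.30 SE, limma adjusted p = 4.80e-05). It was called in 21 of 21 alternatives, but its size was smaller with normexp (-1.57, adjusted p = 0.0225) and in the authors' deposited values (-2.34). Its levels were -0.96, -0.91, -0.31 and -0.36 in the Bmi1 null colonies against -3.53, -4.32, -4.54 and -5.07 in the double null ones, with wild type at -0.48 to -0.99. As for Bmp2, all 4 double null colonies lay below all 8 others, and replicate 3 of them was not well above background.

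The rest of the ligand lists was not called: 14 of 15 genes of the other BMP and GDF list, which also holds the procollagen protease Bmp1, and 8 of 8 activin-like ligands, among them the activin subunit Inhba (-0.10, limma adjusted p = 0.939). Of the type I receptors, Acvrl1, the endothelial BMP9 receptor, was 4.33-fold lower in double null colonies (log2 change -2.11 ± 0.36 SE, limma adjusted p = 0.00491; -2.45, adjusted p = 0.0506 with slide as a block). The type I receptors Bmpr1a and Acvr1 and the type II receptor Bmpr2 were not called, with Bmpr1a at 0.02 (unadjusted 95% interval -0.55 to 0.59), Bmpr2 at -0.03 (-0.39 to 0.33) and Acvr1 at 0.05 (-0.45 to 0.55). Bmpr1b, like Bmpr1a a type I receptor for BMP2 and BMP4, was at 0.80 (limma adjusted p = 0.152). None of the 6 signalling Smads was called between the mutants: Smad1 was at -0.41 (adjusted p = 0.198), Smad5 at 0.59 (adjusted p = 0.143) and the shared partner Smad4 at 0.35 (adjusted p = 0.256).

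Among antagonists, Fstl1, a secreted relative of follistatin, was 4.08-fold higher in double null colonies (log2 change 2.03 ± 0.45 SE, limma adjusted p = 0.0168). It lost the call with slide as a block (1.69, adjusted p = 0.157) and without double null replicate 3 (1.85, adjusted p = 0.0530). Bmper, which binds BMPs outside the cell, was lower (-1.90, adjusted p = 0.0108), though it was well above background on 2 of 4 double null arrays, replicates 1 and 4. The value on replicate 1 was left out as an outlier, so among the double null values fitted only that of replicate 4 was well above background. Bmper was called in 15 of 21 alternatives, and normexp gave 0.64. Noggin (Nog) was not called (-0.18, limma adjusted p = 0.734). Inside the cell, Tob1, an antiproliferative protein that also restrains Smad signalling, was 3.85-fold lower (-1.95, adjusted p = 0.00189), and Zeb2, a Smad-binding repressor, was higher (0.90, adjusted p = 0.0230, on 3 double null arrays, since replicate 1 was an outlier). Zeb2 kept its call in 15 of 22 alternatives and lost it with slide as a block (adjusted p = 0.166) and as the mean of its probes (adjusted p = 0.212). Tgif2, a Smad corepressor, was higher by 0.73 (adjusted p = 0.0285) and is named after its value was seen. It was called in 13 of 22 alternatives and lost the call with slide as a block (adjusted p = 0.192), quantile normalization (adjusted p = 0.0786) and normexp (adjusted p = 0.0600).

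Among 16 transcription factors and other BMP-responsive genes, Msx2 and Dlx3, homeobox genes of tooth and skin, were lower in double null colonies and the other 14 were not called. Msx2 was at -2.49, -2.31, -2.39 and -2.07 in the Bmi1 null colonies, and at -4.22, -4.22, -4.43 and -2.68 in the double null ones. Its change was -1.57 ± 0.33 SE (limma adjusted p = 0.0125) and lost the call with normexp (-0.24, adjusted p = 0.591). Dlx3 changed by -2.97 (adjusted p = 0.0225), was well above background on 1 of 4 double null arrays, and also lost the call with normexp (-0.19, adjusted p = 0.726). Msx2 was called in 19 of 22 alternatives and Dlx3 in 13 of 21. Both genes were highest, within the double null colonies, on replicate 4, the colony that also had the most Id1. None of 8 partners of Id proteins was called between the mutants.

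**Figure D4:**
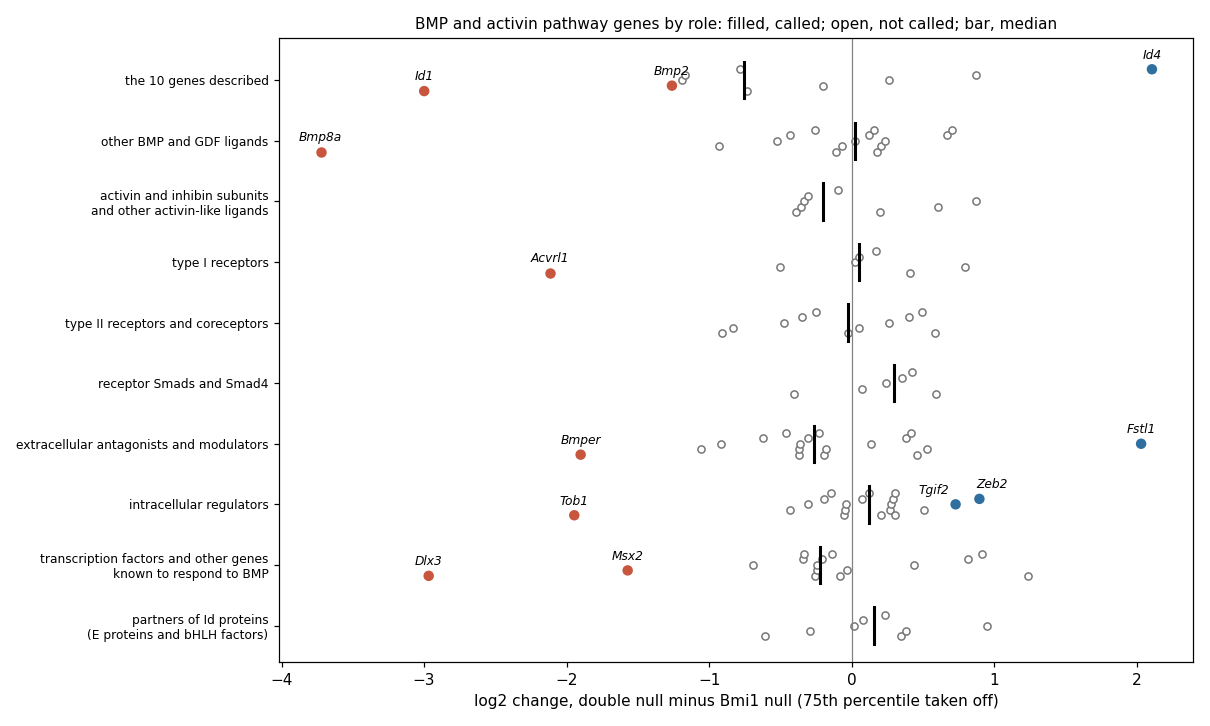
Log2 change between double null and Bmi1 null colonies (horizontal axis) for the 10 genes and for 108 other tested BMP and activin pathway genes, grouped by role (the list of other BMP and GDF ligands includes the protease Bmp1); filled points were called (red lower, blue higher), open points were not, and vertical bars are medians. Most roles centre near 0, with Bmp8a (-3.72) and Id1 (-3.00) farthest to the left.

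Against wild type, 39 of these 108 pathway genes were higher and 34 lower in both fits in Bmi1 null colonies, and 36 and 34 in double null colonies, beside 62.7% and 63.7% of all genes called. Several receptors and signalling Smads were higher, in both fits and both mutants: Acvr1 by 2.08 (Bmi1 null) and 2.14 (double null), Bmpr1a by 1.65 and 1.67, Bmpr2 by 1.43 and 1.40, Smad1 by 1.73 and 1.32, and Smad5 by 1.17 and 1.76. The second Smad1 probe gave 0.19, which was not called, and 0.52. Bmpr1b was lower in Bmi1 null colonies (-1.82). Smad4 was higher by 0.68 and 1.03 on the probe that stood for it, and a second probe went the other way (-3.03 and -2.95). In Bmi1 null colonies the largest changes, relative to the median of all genes, were those of Tob1 (3.67), Htra1 (3.04), Bmp1 (2.29), Stub1 (2.27), Bmp10 (-4.93), Gata2, Bmp5 and Cer1, an antagonist that was not well above background in either mutant and was at least 22.3-fold lower. Gata2 (-4.98, second probe -2.15) and Bmp5 (-4.93) were well above background on 1 and 2 of the 4 Bmi1 null arrays, so the size of these falls is uncertain. In double null colonies the largest changes, ranked in the same way, were those of Fstl1 (2.81), Tcf4 (2.79), Bmp1 (2.50), Smurf1 (2.29), Stub1 (2.22), Bmp5 (-5.19, well above background on 1 of 4 double null arrays), Cer1 (at least 20.2-fold lower) and Bambi, whose probes disagreed in sign (2.18 and -3.07). These bounds compare wild type with the lowest signal well above background on the dim arrays.

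The genes whose levels followed Id1 most closely over the 12 arrays, with the array median taken off, were Defb14, a beta-defensin (Pearson r = 0.971), Il1f9, an epithelial cytokine (0.969), and Crct1, a squamous differentiation gene (0.966). Over the 8 mutant arrays they were Banp (0.975), Glul (0.972) and Mansc1 (0.972). For Fst they were Pcolce2 (0.984), Igfbp2 (0.978) and Itga3 (0.977) over 12 arrays, and Fhod1 (0.962), Ankrd34b (0.957) and Mepe (0.939) over 8. In all, 166 of 16125 named genes had r above 0.9 with Id1 over 12 arrays, and 2377 had it with Fst. Arrays of 1 genotype share their genotype and the width of their signal range, so these correlations describe likeness and carry no test.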

How the data were processed

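Amplified total RNA of each colony, labelled with Cy3, was put on an Agilent mouse array in 1 colour, per the labels' protocols. The authors deposited scanner output from Feature Extraction 10.7.3.1, per the file headers, in which each spot has a background-subtracted signal as a linear intensity. A table of processed values that the authors deposited lies on a log2 scale, and how it was normalized is not stated in the labels or headers. It was used as an alternative.

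Control spots were left out and outlier spots set to missing. Log2 signals had the array's 75th percentile taken off, and spots of a probe were averaged. Probes well above background on at least 3 of 4 arrays of 1 genotype were kept, and the probe with the highest mean stood for a gene. A bright group against a dim one is given as at least N-fold, with the 75th percentile taken off. Probe accessions were matched to a RefSeq table (GRCm38.p6): 24844 of 41174 probes had 1 symbol, 16330 had none, and 0 had more than 1. Genotype means were fitted to all 12 arrays at once (limma 3.58.1, R 4.3.3, 9 residual degrees of freedom), and p-values of the moderated test were Benjamini-Hochberg adjusted over 31064 genes. The fit was tested on simulated data. The number of arrays limits the precision.

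Arrays lay on 5 slides. Slide 1 held 2 wild-type and 2 Bmi1 null arrays, slide 2 had 1 of each genotype, slide 3 had 2 double null arrays and 1 Bmi1 null, and the other two had 1 each. Alternatives were the array median, quantile normalization, normexp background correction with an offset of 50, the authors' table, both filters on dim probes, other probes, slide or replicate number as a block, only the arrays compared, and each array left out. Normexp used median spot signals.

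The 10 genes, the pathway and marker lists, the tests and the alternatives were chosen with earlier results of these data known. Named are the 10 genes, Bmi1 and Cdkn2a, fixed receptors, Smads, Nog, Inhba and Msx2, up to 8 other called pathway genes per comparison with the largest change relative to the median of all genes, and the 3 genes most like Id1 and Fst.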

Additional observations from a re-analysis of the deposited data

How the results depend on the processing

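Of the 3 genes called between the mutants, Id1 kept its call in 23 of 23 alternatives. Bmp2 kept it in 20 of 22 and lost it with normexp (-0.68, limma adjusted p = 0.162) and with slide as a block (-1.42, adjusted p = 0.0725). Id4 kept it in 21 of 23 and lost it on its second probe and with slide as a block (2.35, adjusted p = 0.116). Slide as a block called 1 of the 10 genes between the mutants in place of 3, 2 pathway genes in place of 9, and 295 of all genes in place of 2347. Fitting only the 8 arrays compared gave 5 pathway genes and 969 genes. Other counts of all genes between the mutants were 1036 with normexp and 1380 with quantile normalization. Leaving out 1 array gave 3 to 6 of the 10 genes (5 without Bmi1 null replicate 1, 6 without double null replicate 1), 6 to 13 pathway genes, and down to 1432 of all genes (without double null replicate 3; 1506 without Bmi1 null replicate 4).

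In double null colonies against wild type, 8 of the 10 genes were called with the 75th percentile, 5 with normexp and 5 without wild-type replicate 1 (5 to 8 over the arrays left out). There the sign of Bmp2 (0.15), Bmp4 (0.55) and Id2 (0.18) turned with the array median, and that of Id2 on its second probe (0.12). For Id4 in Bmi1 null colonies, not called, it turned with the array median (0.15) and on the second probe (0.52). For Bmp7 in Bmi1 null colonies it turned on the second probe (-0.011). The share of called genes that were higher was 30.2% for Bmi1 null and 29.9% for double null colonies against wild type, and 36.4% between the mutants. With the array median it was 51.1%, 50.5% and 50.1%, with quantile normalization 46.7%, 46.5% and 37.7%, and with the authors' deposited values 46.7%, 46.8% and 48.8%. The causes were not tested.

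Samples were not paired by replicate number in the main fit. The deviations of 10 same-numbered pairs correlated at -0.14 to 0.22, 3 of them above 0.1. Those of 38 differently numbered pairs correlated at -0.23 to 0.22, 5 of them above 0.1. With so few arrays per genotype, these values cannot exclude a pairing. With the replicate number as a block, Bmp2 (-1.26, limma adjusted p = 0.0317), Id1 (-3.00, adjusted p = 0.0293) and Id4 (2.11, adjusted p = 0.0439) stayed called, and the count of all genes between the mutants was 1392.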
